A study of Canis lupus familiaris with 2 samples.

Results

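The muscle miRNAs of dog serum are described here across a pair of arrays, 1 for normal and 1 for dystrophic serum. They were chosen by name, with earlier results of these data known. The rule took the dog miRNAs on the chip named miR-1, miR-133, miR-206, miR-208 or miR-499 with any letter, and 8 of the 291 dog miRNAs met it. The paper cites earlier reports of high miR-1, miR-133 and miR-206 in serum of Duchenne muscular dystrophy and its animal models. The skeletal muscle members are cfa-miR-1, cfa-miR-133a, cfa-miR-133b, cfa-miR-133c and cfa-miR-206, and the cardiac or slow-fiber members are cfa-miR-208a, cfa-miR-208b and cfa-miR-499. Serum was taken at 2 months of age from male dogs of the CXMD_J colony, in which an X-linked dystrophin defect serves as a model of Duchenne muscular dystrophy. Sera of 3 unaffected dogs were mixed into the normal pool and sera of 3 affected dogs into the dystrophic pool before RNA was prepared. The RNA was labelled with Cy5 and hybridized to 1 single-color 3D-Gene chip per pool. Each value therefore rests on 1 spot of 1 array of 1 pool. No difference between dogs can be seen, and no test between the sera was possible.

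miRNAs are short RNAs that pair with messenger RNAs, mostly through the bases of the 5′ seed, and lower the amount of protein made from them. miR-1, miR-133 and miR-206 are made in striated muscle under myogenic transcription factors and act on myoblast proliferation and differentiation. miR-208a, miR-208b and miR-499 lie within myosin heavy chain genes and are known from heart and slow muscle fibers. Muscle miRNAs in serum are widely read as a sign of RNA released from muscle, but an array of serum does not show from which tissue an RNA came.

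All 8 miRNAs matched genes listed by RefSeq for UU_Cfam_GSD_1.0, a dog assembly used here for gene names and their order only. The skeletal members lie in pairs with no other annotated gene between them. MIR1-2 is next to MIR133A, and both overlap MIB1, a ubiquitin ligase gene. MIR1-1 is next to MIR133C, and MIR206 is next to MIR133B. Mature miR-1 can come from both MIR1 genes, so its spot cannot be assigned to either pair. MIR208A overlaps MYH6, MIR208B overlaps MYH7 and MIR499 overlaps MYH7B.

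Spot intensity is the deposited median brightness in arbitrary units. Net signal is the spot minus the mean of the blank spots of its array, 118 for normal and 116 for dystrophic serum. This mean and the SD of the blank spots were taken after trimming 5% of the blank spots at each end. A miRNA was taken as detected above that mean plus 2 SD of the blank spots, 126 and 124 on the respective array, which held for 54.6% of the dog miRNAs of the normal array and for 64.6% of those of the dystrophic array. This limit, which follows the deposited table, was low: 21 of the 32 negative controls passed it for normal and 27 for dystrophic serum, as did 26.5% and 23.8% of the spots without a probe. The brightest negative control, 163 for normal and 152 for dystrophic serum, was therefore taken as a stricter limit beside it, which 17.5% and 28.2% of the dog miRNAs passed. Normalized signal is the net signal multiplied by 1 factor per array that sets the median of the detected dog miRNAs to 25. The error given with a signal is the SD of spot noise. It is made up of the SD of the trimmed blank spots and the variation of 6.67% between the 8 spots of bright control probes. The noise range of a ratio is what remains when both signals move by 2 such SD in opposite directions. It covers spot noise alone. The trimmed SD leaves out the extreme blank spots, and 9.38% of all blank spots in normal and 8.59% in dystrophic serum passed the limit. The errors and noise ranges of dim spots are therefore narrower than the untrimmed blank spots would give.

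The 3 miR-133 spots were near the blank level in normal serum and bright in dystrophic serum. miR-133 is known to favor myoblast proliferation by repressing serum response factor. The spot of cfa-miR-133a read 132 in normal and 2455 in dystrophic serum. That of cfa-miR-133b read 145 and 3049, and that of cfa-miR-133c 131 and 2652. No blank spot, spot without a probe or negative control of the dystrophic array was as bright as any of them. In normal serum, 52 of the 1408 blank spots and 13 of the 32 negative controls were at least as bright as the spot of cfa-miR-133a. For cfa-miR-133b these were 17 and 5, and for cfa-miR-133c 60 and 16. The miR-133 signals of normal serum thus lay within the range of control spots, whereas those of dystrophic serum lay outside it.

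**Figure D1:**
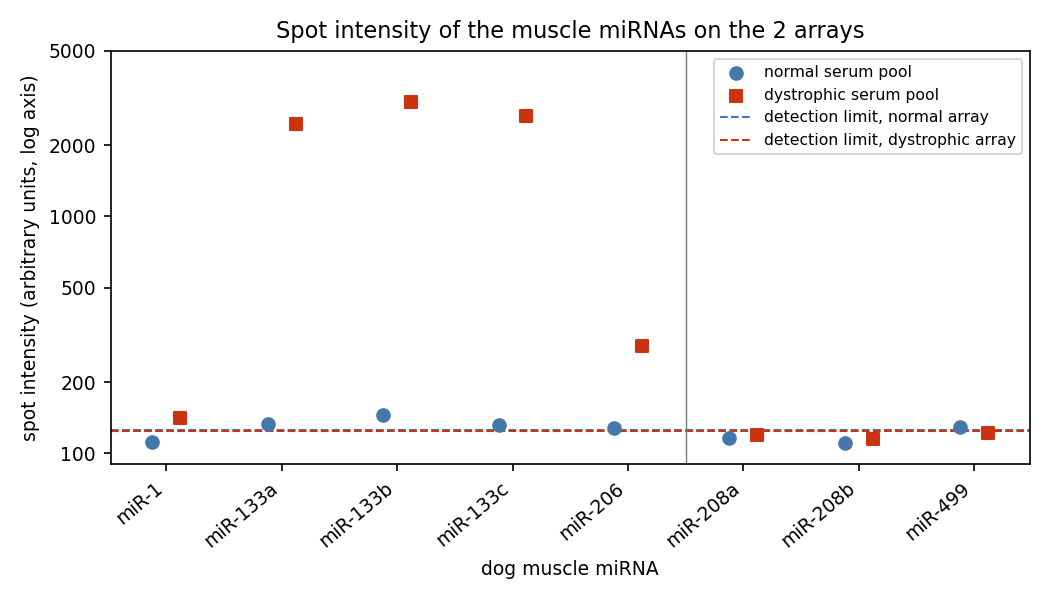
Spot intensity (arbitrary units, log axis) of each muscle miRNA in normal (circles) and dystrophic (squares) serum, with the detection limit of each array as a dashed line and the skeletal members left of the vertical line. The miR-133 spots read from 131 to 145 in normal and from 2455 to 3049 in dystrophic serum, and the miR-208 spots stayed under both limits.

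In normalized signal, cfa-miR-133a was 15.1 ± 4.22 for normal and 1934 ± 129 for dystrophic serum, giving a measured dystrophic over normal ratio of 128 and a noise range from 71.3 to 331. cfa-miR-133b was 27.8 ± 4.50 and 2426 ± 162, a ratio of 87.1 with a range from 57.1 to 146. cfa-miR-133c was 13.8 ± 4.20 and 2097 ± 140, a ratio of 152 with a range from 82.0 to 442. Since the normal spots lay within the range of negative controls, the size of these ratios is not settled by the data. When normal serum was set to its lowest signal above the brightest negative control, the dystrophic signal was at least 38.6-fold higher for cfa-miR-133a, 48.4-fold for cfa-miR-133b and 41.8-fold for cfa-miR-133c. No order of the 3 miRNAs by ratio can be read from these values. The members of this family have similar sequences, and how much labelled RNA their probes share was not tested. They are not independent measurements.

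cfa-miR-206, which is largely restricted to skeletal muscle and is known for its rise in regenerating fibers, was dim in normal and clear in dystrophic serum. Its spot read 129 and 284. In normal serum 86 blank spots and 21 negative controls were at least as bright, and in dystrophic serum none was. The normalized signal was 11.0 ± 4.16 for normal and 139 ± 9.90 for dystrophic serum, which gave a measured ratio of 12.6 and a noise range from 6.17 to 58.3. Against the lowest normal signal above the brightest negative control, it was at least 2.78-fold higher in dystrophic serum. With all the normal signals of miR-206 and miR-133 within the range of negative controls, their ratios cannot be ranked against each other.

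cfa-miR-1, which promotes differentiation of muscle cells and represses histone deacetylase 4, passed the limit in dystrophic serum only. Its spot read 112 in normal serum, under the mean blank spot, and 141 in dystrophic serum. As bright or brighter were 91.9% of the blank spots of the normal array. On the dystrophic array these were 1.07% of the blank spots, 7.73% of the spots without a probe and 7 of the negative controls. The difference in net signal between the sera was 30.7 ± 5.93 units, compared with 158 ± 12.6 for cfa-miR-206 and 2325 ± 156 for cfa-miR-133a. The normalized dystrophic signal was 20.6 ± 3.67. Set against the lowest detected signal of the normal array, it was 2.48-fold higher, and 2 SD of its own noise moved this value from 1.60 to 3.36. The spot stayed under the brightest negative control on both arrays, so the stricter limit gave no fold for cfa-miR-1.

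In all, 5 of the 5 skeletal members were above the limit in dystrophic serum and 4 of them in normal serum. Of the 4 detected in both sera, 4 had a measured ratio above 2, and their median ratio was 108, which rests on the dim normal spots. This median lies between the ratios of cfa-miR-133b, 87.1, and cfa-miR-133a, 128, and cfa-miR-206 had 12.6. The miR-133 members are not independent measurements, so these counts and ranks are not of separate families. Of all the dog miRNAs detected in both sera, 13.4% had a ratio above 2, and the median ratio was 1.09. With miR-1 added through the lowest detected signal, 5 of 5 skeletal members detected in dystrophic serum were above 2, compared with 15.4% of all dog miRNAs detected there. The value of miR-1, 2.48, is not separated from 2, as its noise ran from 1.60 to 3.36, and its spot was under the brightest negative control. At the stricter limit 0 of the 5 were above the negative controls in normal serum and 4 in dystrophic serum, and these 4 were at least 2-fold higher, compared with 9.76% of the dog miRNAs above that limit in dystrophic serum. The 4 measured ratios held ranks 1 to 4 of the 142 dog miRNAs detected in both sera. Rank 4 was not separated from the rest by spot noise. The next ratio, 6.09 for miR-128, had a noise range from 2.81 to 35.1, and the ranges of 20 of the other 138 miRNAs reached the lower end of that of cfa-miR-206, 6.17. The ratios of these 138 miRNAs ran from 0.196 to 6.09.

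**Figure D2:**
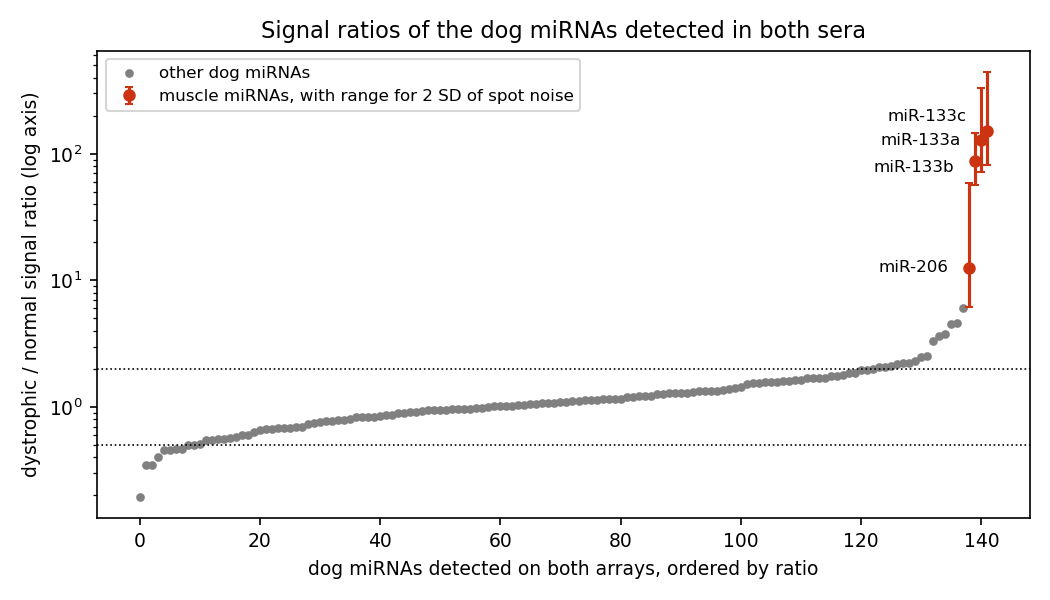
Dystrophic over normal ratio (log axis) of the 142 dog miRNAs detected on both arrays, in order of ratio, with dotted lines at 0.5 and 2 and bars for the range that 2 SD of spot noise allows around the muscle miRNAs. The 4 muscle miRNAs stand at the right end, with ratios of 12.6, 87.1, 128 and 152, each over a normal spot within the range of negative controls.

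The cardiac or slow-fiber members stayed close to the blank level in both sera. cfa-miR-208a, which lies in the gene of the alpha cardiac myosin heavy chain, read 116 in normal and 119 in dystrophic serum. cfa-miR-208b, in the gene of the beta or slow myosin heavy chain, read 111 and 116. Neither was detected in either serum, and no ratio is given. Of the blank spots, 60.9% in normal and 22.7% in dystrophic serum were at least as bright as cfa-miR-208a, and 95.0% and 48.9% were at least as bright as cfa-miR-208b. Their net signals differed between the sera by 5.38 ± 5.70 and 6.56 ± 5.70 units, which is about 1 SD of spot noise.

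cfa-miR-499, from the slow-muscle myosin gene MYH7B, was the 1 member above the limit in normal serum alone. Its spot read 130 in normal and 122 in dystrophic serum, a difference to the limit of 3.91 units on the normal and of -2.02 units on the dystrophic array. In normal serum 5.26% of the blank spots and 19 of the 32 negative controls were at least as bright. The net signals differed by -5.56 ± 5.77 units (dystrophic minus normal), within 1 SD of spot noise, and no fold or direction is given.

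With the blank level subtracted, the skeletal and the cardiac or slow-fiber members separated in dystrophic serum. There, 5 of 5 skeletal spots and 0 of 3 cardiac or slow-fiber spots were above the limit, compared with 64.6% of all dog miRNAs. In normal serum 4 of 5 and 1 of 3 were, compared with 54.6%. At the stricter limit 4 of 5 and 0 of 3 passed in dystrophic serum, where cfa-miR-1 was lost, compared with 28.2% of all dog miRNAs. The lowest difference in net signal of a skeletal member, 30.7 units for cfa-miR-1, was larger than the highest of a cardiac or slow-fiber member, 6.56 units for cfa-miR-208b. With the local background subtracted this order did not hold, at -5.31 units for cfa-miR-1 and 12.2 for cfa-miR-208b. Neither passed the limit in either serum with that subtraction. Of the skeletal members, cfa-miR-133c alone stayed above cfa-miR-208b there. What each probe captures per molecule is unknown, so a dim spot of miR-208 or miR-499 does not show that less of that RNA was present than of a bright one, and a rise under the detection limit would not have been seen. With 8 spots on 2 arrays this comparison is a description.

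The spots next to the miR-133 spots stayed dim. Spots are printed in blocks, and up to 8 spots lie next to each one. The 8 next to cfa-miR-133a read from 111 to 189 in normal and from 119 to 216 in dystrophic serum. The 5 next to cfa-miR-133b read from 120 to 246 and from 123 to 274, and the 3 next to cfa-miR-133c from 124 to 240 and from 121 to 201. No spot beside a miR-133 spot came near the miR-133 level on the dystrophic array. The 8 spots next to cfa-miR-206 read from 118 to 178 in normal and from 126 to 233 in dystrophic serum. They included miR-128, which read 128 and 193, and miR-330, the brightest of them in both sera. The brightness measured directly around the miR-133 spots was high on the dystrophic array, with a local background from 2019 to 3087, compared with 110 to 126 on the normal array, and it was not subtracted in these values. Whether the place on the chip plays a part in the ratio of miR-128 was not tested. All 8 member spots were marked as usable at each of the 3 scanner gains on both arrays.

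**Figure D3:**
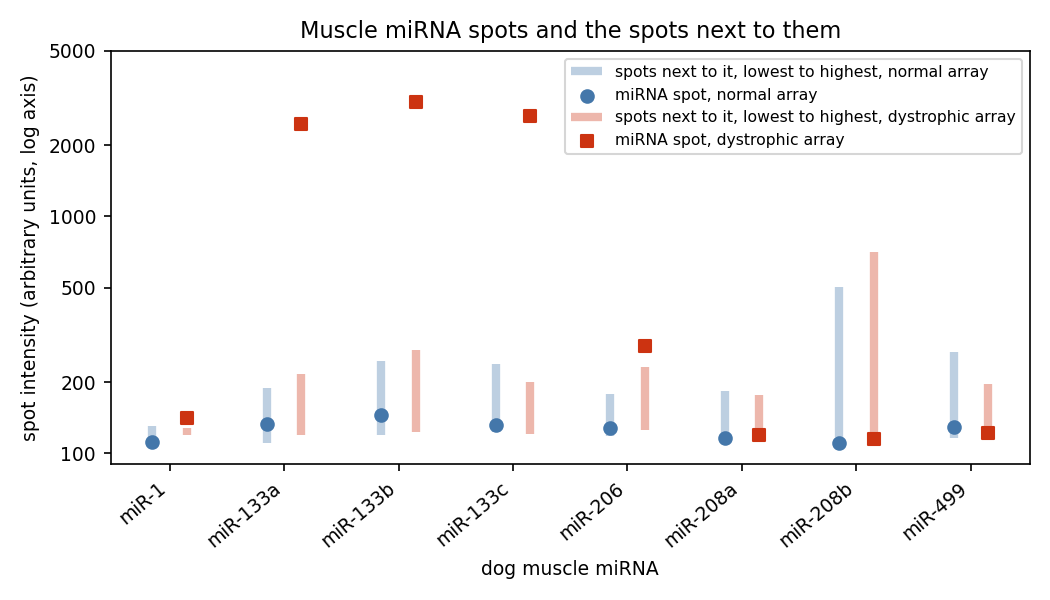
Spot intensity (arbitrary units, log axis) of each muscle miRNA in normal (circles) and dystrophic (squares) serum beside the lowest to the highest of the spots next to it on the chip (bars). Around the 3 miR-133 spots of the dystrophic array the adjacent spots reached at most 274.

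Both the size of the ratios and, for 1 way of taking off the background, the sign of the net differences depended on the processing. With the local background subtracted in place of the blank level, the dystrophic net signal of cfa-miR-133a was -387, compared with 22.1 for normal serum, and that of cfa-miR-133b was -37.9, compared with 19.0. cfa-miR-206 was 37.7 in normal and 18.5 in dystrophic serum and cfa-miR-1 28.8 and 23.4. None of these passed the limit, so they gave no ratio, and no direction is read from them. Around cfa-miR-133a and cfa-miR-133b the local background of the dystrophic array, 2842 and 3087, was brighter than the spot itself. Over all spots the log values of spot and local background correlated with an r of 0.969 for normal and 0.976 for dystrophic serum. cfa-miR-133c, at 14.4 and 632, was the 1 skeletal member still higher in dystrophic serum. The other alternatives left the 5 skeletal differences positive wherever they changed the net signal, and those that gave a ratio kept it above 1. Over these, the ratio ran from 18.0 to 167 for cfa-miR-133a, from 20.5 to 115 for cfa-miR-133b, from 19.7 to 198 for cfa-miR-133c and from 2.15 to 16.4 for cfa-miR-206. The lowest values came without background subtraction, which leaves the blank level in both signals. The value of cfa-miR-1 was above 2 in 7 of the 12 alternatives that gave it a value and ran from 1.09 to 3.88. Under a filter that kept normalized signals from 25 upward in both sera, cfa-miR-133b alone of the 8 members was left, with a ratio of 87.1. The count of 4 skeletal members detected in both sera became 3 when the limit was raised to 3 SD, where cfa-miR-206 was lost in normal serum, and 1, cfa-miR-133b, with untrimmed blank spots. It was 0 with the limit at the 99th percentile of the blank spots, at the brightest negative control and after local background subtraction, so that the median ratio of 108 has no counterpart there. Over the chip, the 142 of 291 dog miRNAs detected in both sera became 118 at 3 SD and 99 with untrimmed blank spots. They were 67 at the 99th percentile, 50 at the brightest negative control and 21 after local background subtraction. No cardiac or slow-fiber member was detected at 3 SD.

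**Figure D4:**
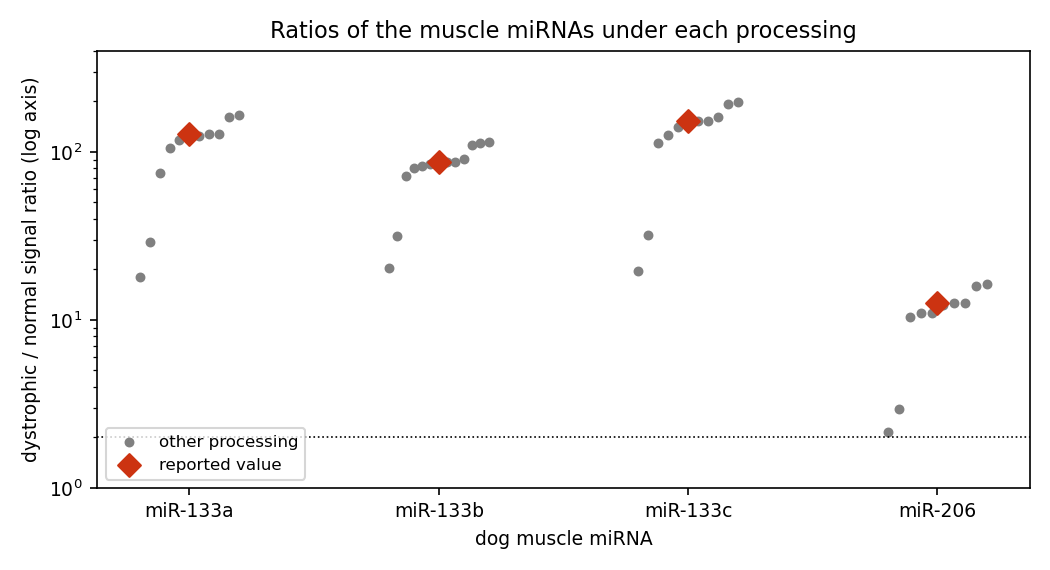
Dystrophic over normal ratio (log axis) of the 4 muscle miRNAs detected on both arrays as reported (diamonds) and under each other processing that gave a ratio (points), with a dotted line at 2. Local background subtraction gave none. The 2 lowest points of each miRNA come from no background subtraction and from normexp with an offset of 50.

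Other miRNAs with a described role in muscle formation had measured ratios near 1 for the most part. From a list of such miRNAs without the 8 above, 28 had a spot on the chip and 20 were detected in both sera. Of these, 3 had a ratio above 2 and 0 had a ratio of 0.5 or less, compared with 13.4% and 5.63% of all dog miRNAs, and their median ratio was 1.13. Another 5 were detected in normal serum alone. Against the lowest detected signal of dystrophic serum, 3 of these came out 2-fold lower or more, miR-186 (2.49-fold, with 2 SD of its noise giving 1.25 to 3.73), miR-222 (2.13, 0.904 to 3.35) and miR-181b (2.05, 0.829 to 3.27). Counted this way, 3 of the 25 detected in normal serum were 2-fold lower or more, compared with 10.1% of all dog miRNAs detected there, and 0 were added among those higher. miR-22, a miRNA abundant in heart and skeletal muscle, measured 37.4 for normal and 171 for dystrophic serum, a ratio of 4.57 (noise range 3.13 to 7.0). miR-378, known to promote myoblast differentiation, was 57.3 and 215, a ratio of 3.75 (2.71 to 5.31). miR-27b, a repressor of the satellite cell factor Pax3, was 45.2 and 101, a ratio of 2.23 (1.55 to 3.31). As measured, the upper ends of the ranges of miR-378 and miR-27b lay under the lower end for cfa-miR-206. The range of miR-22 overlapped that of cfa-miR-206. Since the normal spot of cfa-miR-206 lay within the range of negative controls, its ratio cannot be ranked against these 3. At the stricter limit cfa-miR-206 was at least 2.78-fold higher, a bound under the ratio of miR-378. The normal spot of miR-378, 173, was above the brightest negative control, 163. Those of miR-22, 154, and miR-27b, 161, were under it, so the size of their ratios is not settled. The noise range of miR-27b also includes 2.

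After the members, the miRNAs with the highest ratios over the 2 arrays were miR-128, miR-22 and miR-105a. Their ratios were 6.09 (noise range 2.81 to 35.1), 4.57 and 4.52 (1.90 to 47.0). Their normal spots read 128, 154 and 127, all under the brightest negative control of 163, so the size of these ratios is not settled either. Likeness here is the ratio alone, over 2 arrays, and it carries no more than that.

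The measured ratios of the markers of other cell types lay on both sides of 1. The red-cell miRNA miR-451 measured 1276 for normal and 250 for dystrophic serum, a ratio of 0.196 (noise range 0.149 to 0.257). Of the other red-cell miRNAs on the chip, miR-144 was detected in neither serum, and miR-185 passed the limit in the dystrophic pool only, at 11.4. Of the liver miRNAs, miR-192 was 30.03 and 26.7, a ratio of 0.889 (0.485 to 1.64), and miR-194 was detected in neither serum. miR-122 was 8.63 and 8.14, and its ratio of 0.943 is uninformative, with a noise range from 0.0737 to 41.0. Of the white cell and platelet miRNAs, miR-223 had a ratio of 0.549 (0.411 to 0.731). That of miR-150 was 0.743 (0.531 to 1.04) and that of miR-142 2.24 (0.986 to 8.23). The ranges of miR-150 and miR-142 included 1, and the normal spot of miR-142, 130, lay within the range of negative controls. The neuron list had 6 spots, of which 4 were detected in both sera with a median ratio of 1.56. It includes miR-128, whose ratio of 6.09 was the highest outside the muscle miRNAs, over a normal spot within the range of negative controls. The other 3 ran from 1.19 to 1.78, with noise ranges that included 1. The part of RNA from blood cells or neurons in the values of the muscle miRNAs was not tested. With the scale set by the spike controls in place of the dog miRNAs, the ratios of the 4 skeletal members detected in both sera were higher, for example 113 for cfa-miR-133b and 16.4 for cfa-miR-206.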

How the data were processed

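Serum RNA of 1 normal and 1 dystrophic pool was hybridized to 1 array each. The authors deposited scanner output, in which intensity is the median brightness of a spot at 635 nm, not normalized, with the local background and usability marks, and a table of normalized intensity rounded to 1 decimal. Per the authors' methods, 3D-Gene Extraction software was used; its version and settings are not given in the sources used here.

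The scanner intensity was processed anew. Blank spots were trimmed by 5% at each end, and their mean was subtracted. Spots above this mean plus 2 SD, and usable at some gain, were taken as detected. The signals of detected dog miRNAs were scaled to a median of 25. The values differed from the deposited intensity by at most 0.0498, within its rounding. Noise came from the SD of the trimmed blank spots and the variation of 10 bright control probes with 8 spots each. Bright means at least 5 times the limit above background. Between the arrays, the dystrophic over normal net signal of 1 of these probes, S-Probe6, was 2.22. The others ran from 0.854 to 1.06. The noise ranges do not cover such differences between arrays. Where 1 array had no detection, it was set to its lowest detected signal. The brightest negative control was added as a stricter limit, with the scale kept. With 1 array per group there are no replicates, the number of arrays limits the precision, and no p-value was computed.

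Besides the members, miRNAs were named by rule: the 3 highest ratios among the others, those of the myogenesis list above 2 or at 0.5 or less, miR-451 and miR-122. Others were named after their values were seen, as controls or as neighbors on the chip. Members and lists were chosen with earlier results of these data known. Alternatives changed background, scaling, detection, dim filter and source of the values. The steps were tested on simulated data. The software was limma 3.58.1 under R 4.3.3 for normexp and, for all other steps, numpy 2.4.6, pandas 2.3.3 and matplotlib 3.10.9 under Python 3.11.15. No mature miRNA sequence was used here.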

Additional observations from a re-analysis of the deposited data

Results flagged for a closer look

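The local background, the median brightness around a spot, enters the comparisons above only where its subtraction is named. Around all 5 skeletal spots it was brighter on the dystrophic array. It was 110 in normal and 2842 in dystrophic serum around cfa-miR-133a, 126 and 3087 around cfa-miR-133b, 117 and 2019 around cfa-miR-133c, and 91.0 and 265.7 around cfa-miR-206. The dystrophic over normal ratio of the local background was 25.8, 24.5, 17.3 and 2.92 for these spots, above the highest of the other 283 dog miRNAs, 2.50. Around cfa-miR-1 it was 1.41, and around cfa-miR-208a, cfa-miR-208b and cfa-miR-499 it was 1.14, 0.904 and 0.865. For cfa-miR-133a and cfa-miR-133b the local background of the dystrophic array was brighter than the spot itself. Over all spots the log values of spot and local background correlated across spots with an r of 0.969 for normal and 0.976 for dystrophic serum. Why it follows the spot was not tested.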

How the results depend on the processing

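Of 16 alternatives run, 14 were planned and 2, the blank level of each block and detection at the brightest negative control, were chosen after seeing the data. The number of skeletal members above 2-fold, 5, was 1 with local background subtraction, where cfa-miR-133c alone was left, and 1 with the filter that kept signals from 25 upward; under all others it was 4 or 5. The median ratio, 108, became 18.8 when no background was subtracted and 30.3 under normexp with an offset of 50, both of which leave a constant in the signals. The number of cardiac or slow-fiber members detected, 1, was 0 with local background subtraction, untrimmed blank spots, 3 SD, the 99th percentile of the blank spots, the brightest negative control and the filter at 25. Under these settings the count of all dog miRNAs detected in both sera, 142 as reported, fell to between 21 and 118. Of the myogenesis list, the 3 above 2-fold became 5 with untrimmed blank spots and 6 both without scaling and with spike controls, 1 at the brightest negative control, and 2 with no background subtraction, normexp, local background subtraction, scaling on the miRNAs detected in both sera and quantile normalization. The count over all dog miRNAs, 19 of 142, moved as well. It was 22 of 99 with untrimmed blank spots, 34 of 142 without scaling and 39 of 142 with spike controls. At the brightest negative control it was 2 of 50, and with no background subtraction and normexp 6 of 142. It was 12 of 142 with scaling on the miRNAs detected in both sera and 10 of 142 with quantile normalization. The 0 at 0.5-fold or less became 2 with scaling on the miRNAs detected in both sera, 1 at the 75th percentile, 3 with quantile normalization, 1 at 3 SD and 2 with the blank level of each block. Over all dog miRNAs, the 8 of 142 became 19, 11 and 22 of 142 with these scalings, in that order. They were 9 of 118 at 3 SD and 12 of 142 with the blank level of each block. Over 16 alternatives, the ratios of the 4 members detected in both sera and the values of cfa-miR-1 and cfa-miR-499 could give 96 values. Of these 29 could not be had, among them all under local background subtraction and at the brightest negative control, and of the other 67 55 lay inside the noise range and 12 outside. Local background subtraction turned the net difference (dystrophic minus normal) of 4 skeletal members negative, to -409 for cfa-miR-133a, -56.9 for cfa-miR-133b, -19.1 for cfa-miR-206 and -5.31 for cfa-miR-1. That of cfa-miR-133c fell to 618; the cause was not tested. The median log2 ratio of all miRNAs detected in both sera, 0.13, was 0.46 without scaling, 0.50 with spike controls, -0.16 with scaling on those miRNAs and -0.26 with quantile normalization.

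A signal at another gain was not run, since 1 signal per spot is given in the files. No paired analysis was possible because each group has 1 array. Signal over background limits the normal serum values: of the skeletal members, cfa-miR-133b alone reached 25 there.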
